A study of Homo sapiens with 27 samples.

Results

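MicroRNA (miRNA) precursors are the hairpin RNAs from which mature miRNAs are cut. Of the 774 human miRNA rows of the deposited array table, 17.7% were named as precursors, and these are described here, chosen by the word PRECURSOR in the row name and by no measured value. Of these rows 135 had a mature row of the same number and letter in the table, and 2, the precursors of miR-128b and miR-658, had none. A further mark, "Plus/Minus", stood on 3 precursor rows (miR-133b, miR-217 and miR-495), and no source explains it.

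The cells were OCI-AML3, an established acute myeloid leukaemia line, grown in RPMI medium with 10% serum. Untreated cells taken at 0 h were the control. The other groups were given SDF-1α at 100 ng/mL or POL6326 at 250 nM for 1, 2, 4 or 8 h, which made 9 groups of 3 arrays. SDF-1α (CXCL12) is the ligand of the receptor CXCR4, by which leukaemia cells are drawn to the bone marrow, and POL6326 blocks that receptor. All RNA came from 1 cell line in culture, and nothing states that arrays of 1 group were separate cultures, so p-values measure the spread between these arrays, which may be technical. Since control cells were taken only at 0 h, in any difference from it the treatment cannot be told apart from hours in culture.

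A miRNA gene is first transcribed into a long primary RNA. In the nucleus Drosha cuts out the hairpin, Exportin-5 carries it to the cytoplasm, and Dicer then cuts it to a short duplex, from which 1 strand, or either, is kept as the mature miRNA in an Argonaute protein. A hairpin is usually short-lived, so the amounts of hairpin and mature RNA of a miRNA need not run together. The sources used here give no probe sequence, so whether a precursor probe also binds the primary or the mature RNA is not known.

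The signals are log2 values. On every array many of the lowest rows share 1 tied value, here the floor. A row above that floor is called detected, and the lowest value above it is the array's detection limit. The blood-cell miRNAs miR-223, miR-155, miR-191, miR-150 and miR-142-5p were detected on 27 arrays, miR-142-3p on 4 and miR-181a on 10. Of the mature rows known from other tissues, the liver row miR-122 was detected on 27 arrays, as were 1 of 4 muscle rows, 1 of 6 epithelial rows, 1 of 4 stromal rows and 0 of 3 neural rows. The muscle rows ranged from 5 arrays (miR-133a) to 27 (miR-206), the epithelial rows from 3 (miR-200c) to 27 (miR-205), the stromal rows from 0 (miR-143) to 27 (miR-214) and the neural rows from 19 to 23. One array stood apart: of the 35 precursors detected everywhere, 8 had the lowest of their 27 values on POL6326 4 h array 1, as had 41 of 139 such mature rows. That array also had the most detected precursors (103), followed by control array 1 (97), SDF-1α 8 h array 1 (91) and the other POL6326 4 h arrays (89 and 90).

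Hairpins of rows called between POL6326 and SDF-1α are shown first, because the comparison below turns on them. They are RefSeq sequences on GRCh38.p14, 5′ to 3′, with the annotated mature miRNAs in capitals. 10 of the 13 rows called in that comparison are shown. The rows of miR-560 and miR-565 matched no RefSeq symbol and, like that of miR-621, which had the highest adjusted p of the 13, are named only.
miR-600, chr9:123111546-123111643, minus strand: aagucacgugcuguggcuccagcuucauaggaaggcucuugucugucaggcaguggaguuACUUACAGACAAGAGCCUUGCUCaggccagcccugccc
miR-638, chr19:10718404-10718503, plus strand: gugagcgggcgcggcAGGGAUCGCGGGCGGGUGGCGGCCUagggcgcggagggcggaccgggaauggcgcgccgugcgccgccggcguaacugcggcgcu
miR-376b, chr14:101040436-101040535, plus strand: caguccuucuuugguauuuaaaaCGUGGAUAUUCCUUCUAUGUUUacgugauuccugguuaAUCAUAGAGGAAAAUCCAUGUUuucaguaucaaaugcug
miR-657, chr17:81125276-81125373, minus strand: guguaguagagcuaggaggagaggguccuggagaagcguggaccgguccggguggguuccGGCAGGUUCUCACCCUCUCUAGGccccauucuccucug
miR-504, chrX:138667711-138667793, minus strand: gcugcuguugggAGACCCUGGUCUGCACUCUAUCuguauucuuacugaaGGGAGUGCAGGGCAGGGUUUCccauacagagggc
miR-765, chr1:156936131-156936244, minus strand: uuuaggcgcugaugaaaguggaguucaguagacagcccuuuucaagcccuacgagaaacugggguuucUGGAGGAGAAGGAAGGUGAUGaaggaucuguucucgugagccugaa
miR-196a-1, chr17:48632490-48632559, minus strand: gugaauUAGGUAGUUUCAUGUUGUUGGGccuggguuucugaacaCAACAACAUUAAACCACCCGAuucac
miR-609, chr10:104218789-104218883, minus strand: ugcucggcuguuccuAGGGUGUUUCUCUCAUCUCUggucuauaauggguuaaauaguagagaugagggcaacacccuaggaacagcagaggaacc
miR-631, chr15:75353611-75353685, minus strand: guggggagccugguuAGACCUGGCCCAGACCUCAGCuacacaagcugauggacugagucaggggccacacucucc
miR-611, chr11:61792495-61792561, minus strand: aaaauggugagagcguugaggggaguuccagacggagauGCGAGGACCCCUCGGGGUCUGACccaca

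The first 6 hairpins belonged to rows that were higher with POL6326 and the last 4 to rows that were lower. They hold 13 annotated mature sequences with 13 different seeds, the stretch of bases 2 to 8 that pairs with target messages, so no seed family joined them. Their base composition was wide: G and C made up 35% of the miR-376b hairpin and 81% of the miR-638 hairpin. By the RefSeq gene spans, which carry no strand or exons in the table used, miR-638 lies within DNM2, miR-657 within AATK, miR-504 within FGF13, miR-609 within CFAP43, miR-631 within NEIL1 and miR-611 within TMEM258. The miR-600 hairpin lies within both STRBP and MIR600HG, miR-765 within both LRRC71 and ARHGEF11, and miR-196a-1 within HOXB-AS4 in the HOXB region. No other gene span held the miR-376b hairpin, which belongs to the imprinted DLK1-DIO3 miRNA cluster of chromosome 14.

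Precursor rows were detected about as often as mature rows. Per array 42 to 103 precursors (30.7% to 75.2%) were above the floor, and precursors made up 16.7% to 20.3% of all detected rows. 35 precursors (25.5%) were detected on 27 arrays and 14 (10.2%) on none, beside 21.8% and 13.3% of the mature rows. The 14 never detected included let-7g, miR-215, miR-376c, miR-557, miR-596, miR-608 and miR-618. The median precursor was detected on 12 arrays.

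Detection differed between the groups. SDF-1α arrays held fewest detected precursors after 1 h, 44.7 ± 3.79 (SD, n = 3), then 57.3 ± 4.04 after 2 h, 67.7 ± 3.06 after 4 h and 73.3 ± 15.9 after 8 h. POL6326 arrays held 63.0 ± 2.00 after 1 h, 58.0 ± 1.00 after 2 h, 75.3 ± 3.06 after 8 h and, the most of any group, 94.0 ± 7.81 after 4 h. The control arrays spread from 49 to 97. The counts were high where the detection limit was low, and that limit lay at 6.88 to 7.42 on the SDF-1α 1 h arrays and at 4.27 to 4.45 on the POL6326 4 h arrays. Above 1 common limit of 7.42, 35 to 42 precursors per array remained. A difference that rests on arrays at the floor depends on where their floor and limit lie.

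**Figure D1:**
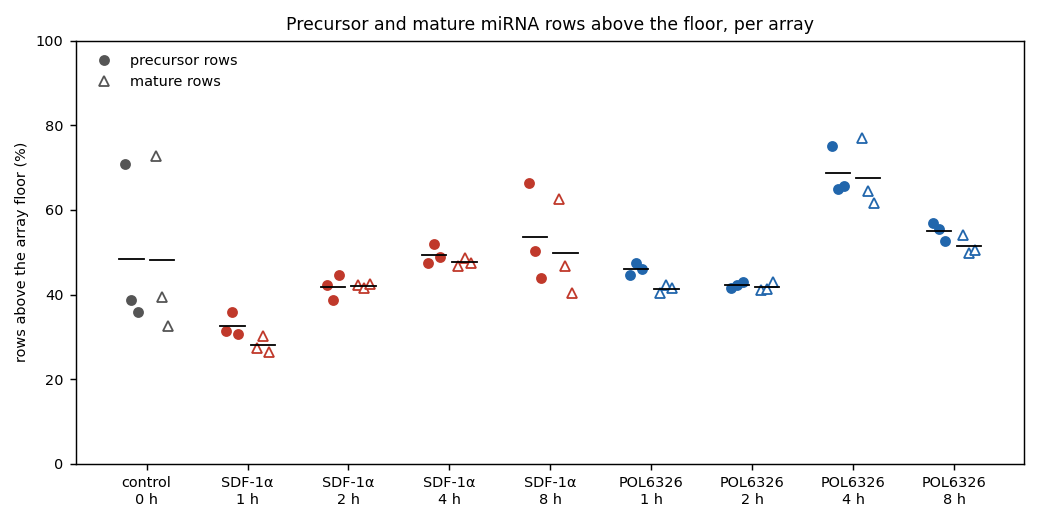
Percent of the precursor rows (filled circles) and of the 637 mature rows (open triangles) above the floor on each array, by group; black lines are means of 3 arrays. Both kinds of row moved together, lowest with SDF-1α at 1 h (precursors 30.7% to 35.8%) and highest with POL6326 at 4 h (precursors 65.0% to 75.2%).

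The hairpins of often detected rows were somewhat richer in G and C. RefSeq gave a hairpin for 113 rows. The median GC content was 52.6% over the 25 hairpins detected on 27 arrays, 48.2% over the 53 detected on 4 to 26 arrays and 45.4% over the 35 detected on 0 to 3 arrays. Across the 113 hairpins, which share the same arrays, the number of arrays with the row detected had Pearson's r = 0.32 with GC content and r = -0.01 with hairpin length. How often a row is detected also depends on how brightly its probe binds, and the part of the probe's own composition was not tested. Hairpin length had a median of 96 bases.

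By family, 70 precursors carried names from miR-548 to miR-663, and 18 of these were detected on 27 arrays. The imprinted DLK1-DIO3 cluster had 18 precursors, of which miR-431, miR-433 and miR-495 (Plus/Minus) were detected on 27 arrays and miR-376c on none. The blood-cell list had 3 precursors, those of miR-181b-2 (26 arrays), miR-222 (14) and miR-181d (1). The let-7 family had 2, let-7i on 6 arrays and let-7g on 0. The chromosome 19 cluster and the families of miR-17, of miR-15 and of miR-16 had 0 precursor rows.

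Several precursors were detected on every array while the mature row of the same miRNA was mostly at the floor. The miR-301a precursor, whose mature form shares the miR-130 seed, read 11.58 to 15.12 over the 27 arrays, and its unmarked mature row was detected on 1 array. The miR-431 precursor read 10.60 to 11.75 with its mature row detected on 5 arrays, and the miR-619 precursor read 11.48 to 13.64. For miR-591 and miR-581 the precursor was detected on 27 arrays and the mature row on 0.

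In the opposite case the mature row was detected without its precursor. The precursors of miR-596 and miR-618 were detected on 0 arrays while the mature rows were detected on 27, and those of miR-496, miR-448 and miR-551a on 1 or 2 while the mature rows were detected on 27. In total, 6 pairs had the precursor on 27 and the mature row on 3 arrays or fewer, 5 pairs had the reverse, and in 13 pairs both rows were detected on 27 arrays. Over all pairs and arrays, both rows were detected in 27% of cases, the precursor alone in 22.5% and the mature row alone in 20.2%. Probes can differ in how brightly they bind, so signal levels are not compared between rows here, and the mean signal served only to pick rows to name.

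**Figure D2:**
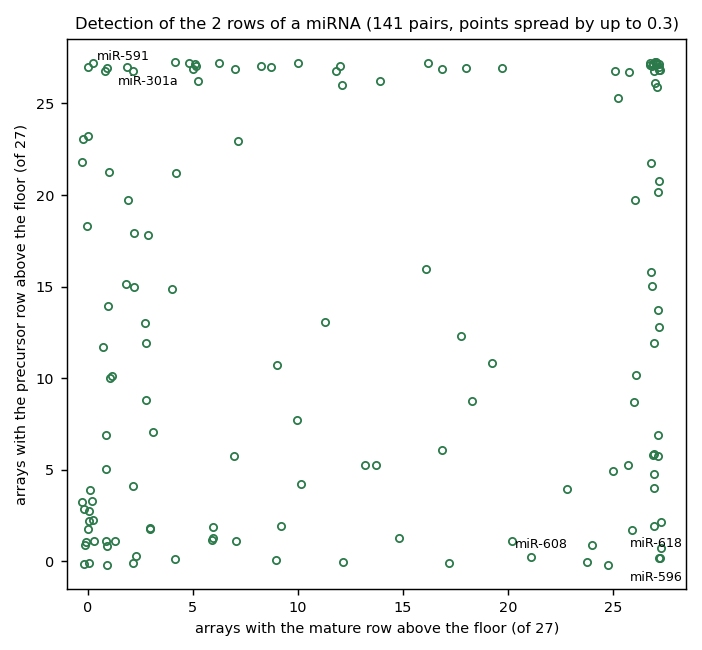
For each pairing of a precursor with a mature row, the number of arrays (of 27) with the precursor row above the floor against the number with the mature row above it; points are spread by up to 0.3 for legibility. Pairs lie along all 4 edges, with miR-301a and miR-591 at the upper left and miR-596 and miR-618 at the lower right.

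The main comparison set the antagonist against the ligand over the 4 matched times, and asked which precursors differ between blocking and activating CXCR4. By limma's moderated test 13 precursors (9.49%) passed the threshold, an adjusted p of 0.05, with 6 of them higher and 7 lower under POL6326. Over all 774 rows 9.82% passed (5.43% higher, 4.39% lower), so precursors were called about as often as miRNA rows at large. The median log2 difference was -0.03 over the precursors and over all rows. The values of 12 arrays against 12 overlapped for each of the 13. By family, the called rows were 9 of the 70 named from miR-548 to miR-663, 1 of the 18 of DLK1-DIO3 (miR-376b) and 3 others (miR-504, miR-765 and miR-196a-1).

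Among the 6 higher rows, those of miR-638, miR-600, miR-376b and miR-504 were at the floor on most SDF-1α arrays. The miR-638 precursor read 4.32 at the lowest, 4.39 at the median and 6.56 at the highest with SDF-1α, and 4.33, 6.83 and 8.50 with POL6326. It was detected on 4 of 12 SDF-1α arrays and 11 of 12 POL6326 arrays, and on 1 of 3 control arrays. The log2 difference fitted by limma came to 1.96 (SE 0.29, adjusted p = 0.000208). As most SDF-1α values of these 4 rows were floor values, their fitted differences depend on where the floor lay and are no measured folds.

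The miR-600 precursor read 4.01, 4.36 and 6.12 (lowest, median, highest) with SDF-1α and 4.34, 6.70 and 8.35 with POL6326. It was detected on 3 of 12 and 11 of 12 arrays and had a fitted difference of 2.08 (SE 0.38, adjusted p = 0.00143 by limma). The miR-376b precursor was likewise detected on 3 SDF-1α arrays, all of them at 8 h, and on 10 POL6326 arrays. It read 4.30, 4.36 and 5.88 with SDF-1α and 4.34, 6.48 and 8.77 with POL6326, a fitted difference of 1.89 (SE 0.38, adjusted p = 0.00306 by limma).

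The miR-657 precursor (fitted difference 1.15, SE 0.32, adjusted p = 0.0284 by limma) was at the floor on all SDF-1α 1 h arrays, so this size depends on the floor too, and on 1 SDF-1α array at 8 h, and was detected on 11 of 12 POL6326 arrays. For the miR-504 precursor the difference was 1.08 (SE 0.30, adjusted p = 0.0284 by limma), with 2 SDF-1α and 7 POL6326 arrays above the floor and all POL6326 2 h arrays at it. Only miR-765 among the higher rows was detected on all 24 treated arrays. It read 6.59, 7.74 and 8.15 with SDF-1α and 7.82, 8.47 and 8.89 with POL6326, a difference of 0.83 (SE 0.21, 1.78-fold, adjusted p = 0.0179 by limma).

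The 7 lower rows were detected on all 24 treated arrays. The miR-611 precursor read 5.73, 7.73 and 8.34 with SDF-1α and 4.95, 6.23 and 7.54 with POL6326, a difference of -1.22 (SE 0.30, adjusted p = 0.0161 by limma). The miR-631 precursor differed by -0.83 (SE 0.22, adjusted p = 0.0239), miR-565 by -0.70 (SE 0.21, adjusted p = 0.0401) and miR-560 by -0.57 (SE 0.14, adjusted p = 0.0153). The smallest differences were -0.41 for miR-621, -0.37 for miR-609 and -0.36 for miR-196a-1 (adjusted p of 0.0462, 0.0179 and 0.0369), the last a hairpin whose mature product targets HOX messages. The calls of miR-565, miR-621 and miR-196a-1 were lost without 15, 18 and 15 of the 27 arrays in turn.

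Several of the lower rows were low on arrays with many detected probes. The POL6326 4 h arrays held the lowest POL6326 value of miR-611, miR-631, miR-565, miR-560, miR-609 and miR-196a-1. On control array 1 and SDF-1α 8 h array 1, the other arrays with many detected rows, the miR-631 precursor read 5.96 and 6.56 where the other arrays of those groups read 7.58 to 8.08. The miR-565 precursor read 6.66 and 7.50 there, against 8.05 to 8.69 on the other arrays of those groups. The miR-609 and miR-621 rows followed this pattern on only 1 of these arrays each. On control array 1 miR-609 read 8.53 against 8.48 and 8.74 on the other control arrays, and miR-621 read 8.63 against 9.57 and 9.70. On SDF-1α 8 h array 1 miR-609 read 8.33 against 8.63 and 8.89, and miR-621 read 9.55 against 9.53 and 9.32. With the number of detected probes as a covariate, 0 precursors were called lower and 6 higher, and the lower rows had adjusted p from 0.136 to 0.359. Of the 13 rows 4 kept their call with the covariate, miR-638, miR-600, miR-376b and miR-657, whereas miR-765 and miR-504 lost theirs (adjusted p of 0.160 each). Without the 4 h arrays 5 precursors were called (3 higher, 2 lower), and without POL6326 4 h array 1 alone 9 were (5 higher, 4 lower). For these and all other settings below, the share of all rows called is not given. Such counts therefore show nothing particular to precursors.

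The split of these calls depended on the scaling. Median centring moved the median of all rows and that of the precursors alike from -0.03 to -0.17. It gave 6 higher and 46 lower precursors. Quantile normalization gave 8 higher and 11 lower. An array's median is the floor itself where most rows are undetected. Only on control array 1, SDF-1α 8 h array 1 and the POL6326 4 h and 8 h arrays was it above the floor. Centring shifted these arrays by -0.09 to -0.33 and the others by 0.005 to 0.13. The centred counts thus mix floor medians with signal medians and are no plain check of scaling. With 1 common detection limit of 7.42 there were 7 calls, of which 6 were among the 13, namely miR-765, miR-611, miR-631, miR-565, miR-560 and miR-609. The miR-638 and miR-600 differences were then 0.17 and 0.16 (adjusted p of 0.328 and 0.584), because most of their values lie under that limit.

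**Figure D3:**
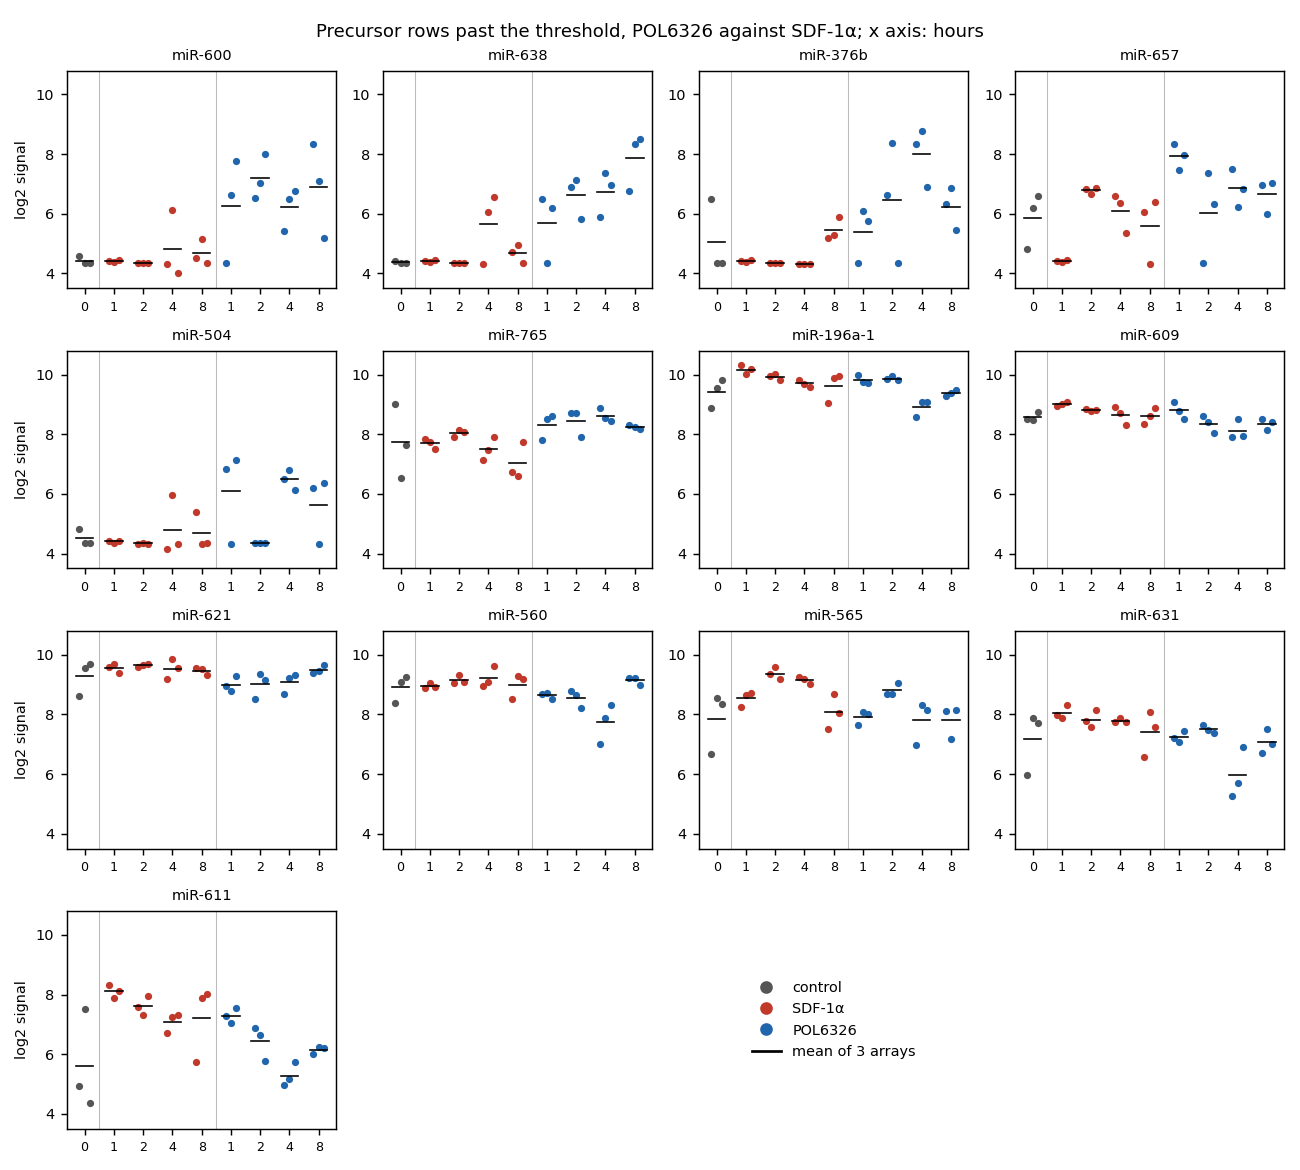
Log2 signal on every array for the 13 precursor rows past the threshold in POL6326 against SDF-1α over 4 times; each panel runs from control (0 h) through SDF-1α (1, 2, 4, 8 h) to POL6326 (1, 2, 4, 8 h), points are arrays and lines are means of 3. The miR-638, miR-600 and miR-376b rows lie at the floor on most SDF-1α arrays, while the 7 lower rows are detected on all treated arrays, and those of miR-611, miR-631, miR-560, miR-609 and miR-196a-1 have their lowest treated mean with POL6326 at 4 h.

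At 1 h, 4 precursors were called (3.49% of all rows were), 3 higher and 1 lower (3.1% and 0.388% of all rows). The 3 higher rows were at the floor on all 3 SDF-1α arrays, where the detection limit was also highest. The miR-657 precursor read 8.35, 7.48 and 7.97 with POL6326 and so exceeded the SDF-1α group at least 1.70-fold (adjusted p = 0.00378 by limma). The miR-450a-2 precursor read 6.22, 6.19 and 7.11 and the miR-637 precursor 6.58, 5.34 and 6.12, but the means of both lay under the SDF-1α detection limits, so no fold is given (adjusted p of 0.0284 and 0.0324). The miR-619 precursor read 13.39, 13.64 and 13.29 with SDF-1α and 11.48, 12.76 and 12.46 with POL6326, a difference of -1.21 (SE 0.32, 2.31-fold, adjusted p = 0.0378 by limma). The groups did not overlap for any of the 4, and without each SDF-1α 1 h array or POL6326 1 h array 3 only 1 or 2 calls were made. A small p from 3 against 3 arrays favours rows without overlap, so here and at the later times this adds no separate support. The share of all rows without overlap is not given.

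At 2 h, 6 precursors were called (4.13% of all rows were), 2 higher and 4 lower (2.07% and 2.07% of all rows), and the groups did not overlap for any of them. With quantile normalization 0 were higher and 2 lower. The miR-600 precursor read 6.54, 7.04 and 8.02 with POL6326 and was at the floor on all SDF-1α arrays, so POL6326 exceeded SDF-1α at least 3.91-fold (adjusted p = 0.0350 by limma). The miR-638 precursor read 6.91, 7.14 and 5.83 with POL6326, and on the same basis the excess was at least 2.62-fold (adjusted p = 0.0289).

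Of the 4 lower rows at 2 h, miR-495 (Plus/Minus) fell from 9.90, 9.86 and 10.09 with SDF-1α to 7.72, 8.88 and 8.30 with POL6326 (-1.65, SE 0.40, adjusted p = 0.0216 by limma). The precursor of miR-206, a muscle miRNA, read 8.14, 7.77 and 6.87 with SDF-1α and 6.05, 6.0 and 6.05 with POL6326 (-1.56, SE 0.36, adjusted p = 0.0162 by limma). All 3 POL6326 arrays of both rows lay below all 3 SDF-1α arrays. The miR-595 and miR-658 precursors differed by -0.80 (SE 0.20) and -0.56 (SE 0.14), with adjusted p of 0.0285 and 0.0300. Without SDF-1α 2 h array 1, 2 or 3, limma called 0, 1 and 1 precursors at 2 h (17, 23 and 19 had an unadjusted p under 0.05), and without each POL6326 2 h array 1 or 2.

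At 4 h, 11 precursors were called (9.82% of all rows were), 3 higher and 8 lower (3.75% and 6.07% of all rows), again with no overlap between the groups. The miR-376b precursor read 8.34, 8.77 and 6.89 with POL6326 and was at the floor on all SDF-1α arrays, so it was at least 9.07-fold higher (adjusted p = 0.00624 by limma). The miR-646 precursor read 7.90, 7.64 and 6.48 with POL6326 against 5.20, 4.30 and 4.32 with SDF-1α (2.74, SE 0.70, adjusted p = 0.0188). Only 1 of these SDF-1α values lay above the floor, and 2.74 is therefore no measured fold. The miR-662 precursor read 4.37, 4.46 and 4.67 with POL6326, just over the floor, against 4.32, 4.30 and 4.32 (adjusted p = 0.0488), and its direction turned with median centring.

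The 8 lower precursors at 4 h were those of miR-433, miR-631, miR-216a, miR-560, miR-565, miR-663, miR-196a-1 and miR-431. The miR-433 precursor read 8.38, 8.41 and 8.60 with SDF-1α and 5.42, 6.70 and 7.32 with POL6326 (-1.99, SE 0.48, adjusted p = 0.0136 by limma). The miR-216a precursor, of a miRNA known from the pancreas, read 8.08, 7.69 and 7.66 against 6.03, 6.62 and 5.70 (-1.69, SE 0.48, adjusted p = 0.0319). The miR-431 hairpin lies at chr14:100881007-100881120 and the miR-433 hairpin at chr14:100881886-100881978 on the same strand (GRCh38.p14), and the miR-431 precursor, picked out here after its values were seen, differed by -0.54 (SE 0.13, adjusted p = 0.0124). Without POL6326 4 h array 1, 3 calls were made (2 higher, 1 lower), without SDF-1α 4 h array 1, 6, and with the number of detected probes as a covariate 1 was. Median centring, which shifted the POL6326 4 h arrays down as given above, gave 2 higher and 46 lower, and quantile normalization 4 and 4.

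At 8 h, 2 precursors were called (1.03% of all rows were), both higher (0.775% of all rows were higher and 0.258% lower). The miR-638 precursor read 6.75, 8.35 and 8.50 with POL6326 and 4.72, 4.94 and 4.34 with SDF-1α (3.20, SE 0.59, adjusted p = 0.00382 by limma). The last of these SDF-1α values was at the floor, so 3.20 depends on it. This call was lost with the common detection limit and when only the groups compared were fitted. The miR-595 precursor read 11.28, 11.12 and 11.28 against 10.82, 10.18 and 10.14 (0.85, SE 0.20, adjusted p = 0.0475 by limma). All POL6326 arrays lay above all SDF-1α arrays for both. The miR-595 call at 8 h was lost in 25 of 36 other settings, among them quantile normalization (adjusted p = 0.492), the common detection limit (adjusted p = 0.0958) and 21 of the 27 that leave out 1 array. Median centring, which also shifted the POL6326 8 h arrays down, gave 2 higher and 27 lower at this time. A limma fit of these 6 arrays alone called 0 (12 had an unadjusted p under 0.05).

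The difference between the treatments varied with time for 4 precursors by limma's moderated F-test, beside 3.88% of all rows. For miR-595 (adjusted p = 0.00962) the log2 difference, POL6326 minus SDF-1α, was -0.03, -0.80, 0.34 and 0.85 at 1, 2, 4 and 8 h (SE 0.20 each). For miR-619 (adjusted p = 0.0220) it was -1.21, -0.56, 0.18 and 1.08 (SE 0.32 each). Both thus ran from below 0 to above it over the 8 h. The mature row of miR-595, detected on 27 arrays, gave an adjusted p of 0.535 in the same test. Whether it differed from its precursor in this was not tested.

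The precursor of miR-206 (adjusted p = 0.0267 by limma's F-test) had its lowest values at different times in the 2 treatments: 6.05, 6.0 and 6.05 at 2 h with POL6326, and 7.09, 6.34 and 6.09 at 4 h with SDF-1α. At 8 h its arrays read 8.55, 8.18 and 8.27 with SDF-1α and 8.42, 7.80 and 8.19 with POL6326, and these groups overlapped. For miR-657 (adjusted p = 0.0421 by limma's F-test) the SDF-1α 1 h arrays were all at the floor, so the 1 h difference has only the bound given above, and POL6326 minus SDF-1α came to -0.78 at 2 h, 0.76 at 4 h and 1.08 at 8 h (SE 0.64). That call was lost without the 1 h arrays, with the common detection limit and without 15 of the 27 arrays in turn, and the miR-619 call without the 1 h arrays (adjusted p = 0.106). The miR-206 call was lost without the 4 h arrays (adjusted p = 0.452) and with the common limit (adjusted p = 0.649), and the miR-595 call with quantile normalization (adjusted p = 0.0699).

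**Figure D4:**
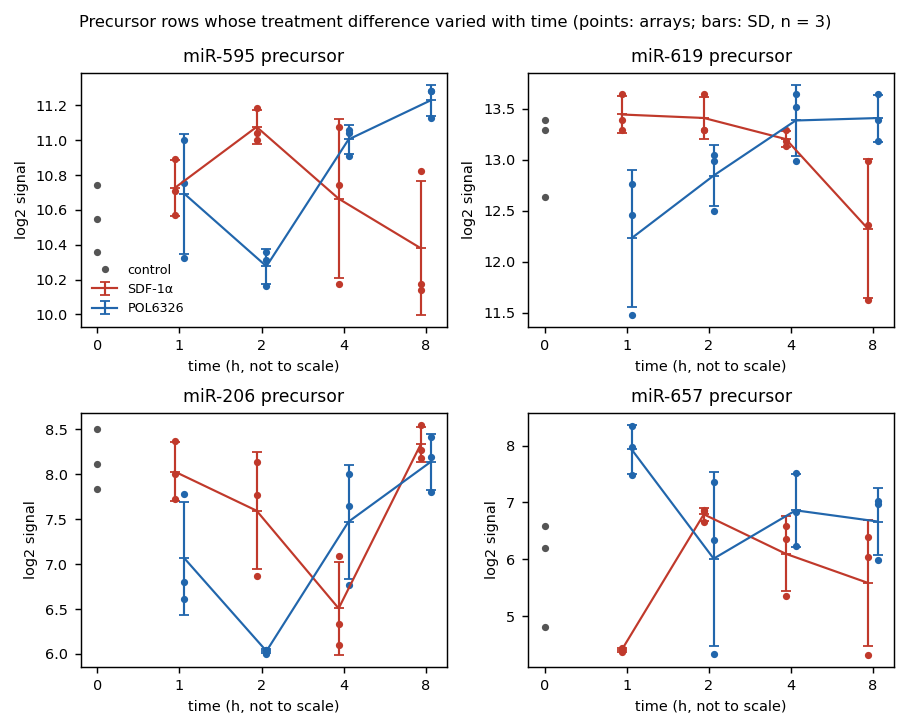
Log2 signal over time (hours, axis not to scale) of the 4 precursor rows whose treatment difference varied with time; points are arrays, bars are means with SD (n = 3), and grey points are the 0 h control. The SDF-1α and POL6326 lines of miR-595 and miR-619 cross between 2 and 4 h, and the SDF-1α arrays of miR-657 lie at the floor at 1 h.

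Across the 9 groups together, 33 precursors (24.1%) passed limma's moderated F-test, beside 24.5% of all 774 rows. The smallest p belonged to miR-212, a CREB-regulated miRNA transcribed with miR-132 (adjusted p = 0.000139). Its arrays read 9.31, 9.54 and 9.78 with POL6326 at 1 h and 9.67, 9.47 and 9.29 at 2 h, the lowest of the 9 groups, and 10.31, 10.87 and 10.57 in the control. Next came miR-206 (adjusted p = 0.000840), miR-638 (0.000965), miR-431 (0.00104) and miR-564 (0.00286). Raising the values under the floor to it, a setting chosen after seeing the data, gave 56 calls, and 54 and 53 were made without control array 1 or SDF-1α 8 h array 1.

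Both treatments were also set against the 0 h control. These comparisons share the 3 control arrays, and control array 1 differed from the other control arrays in its number of detected precursors (97 against 53 and 49), so their calls are given side by side. With SDF-1α 6 precursors were called (2.84% of all rows were), 4 higher and 2 lower (0.904% and 1.94% of all rows). With POL6326 7 were called (3.75% of all rows were), 4 higher and 3 lower (1.81% and 1.94% of all rows). Median centring gave 2 and 2 with SDF-1α and 4 and 6 with POL6326, and quantile normalization gave 4 and 1, and 5 and 2.

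The miR-433 precursor of the DLK1-DIO3 cluster was higher with each treatment. It read 4.96, 7.09 and 6.55 in the control, 7.46, 8.21 and 9.13 (lowest, median, highest) with SDF-1α and 5.42, 8.27 and 8.89 with POL6326. The log2 differences were 2.02 and 1.75 (SE 0.38 each, adjusted p of 0.00588 and 0.00918 by limma), and all SDF-1α arrays lay above all control arrays. Without control array 1 the differences were 1.4 and 1.13, and neither was called (adjusted p of 0.0754 and 0.0856).

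The precursor of miR-194-1, a miRNA of liver and gut, was lower with each. It read 4.58, 5.96 and 6.56 in the control and was detected on 2 of 12 SDF-1α and 4 of 12 POL6326 arrays, with differences of -1.30 and -1.29 (SE 0.23 each, adjusted p of 0.00588 and 0.00301 by limma). Most treated values were at the floor, so these sizes depend on it, and with the common detection limit neither was called (adjusted p of 0.261 and 0.185).

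With SDF-1α the miR-611, miR-650 and miR-431 precursors were also higher than control, by 1.91 (SE 0.48), 0.64 (SE 0.17) and 0.38 (SE 0.10), and the miR-646 difference was -2.23 (SE 0.55), with adjusted p from 0.0423 to 0.0498 by limma. The miR-646 row rose above the floor on only 5 of its 12 arrays with SDF-1α, and -2.23 is therefore no measured fold. The miR-611 control arrays read 4.94, 7.50 and 4.36, of which 2 lay below all SDF-1α arrays and 1 among them. The set of calls with SDF-1α was not stable: without each of 18 of the 27 arrays in turn it held 1 to 3 or 9 calls, with 1 left without control array 1 and 9 without SDF-1α 8 h array 1.

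With POL6326 the miR-638 and miR-600 precursors were higher than control by 2.35 (SE 0.46) and 2.21 (SE 0.60), both with 2 of 3 control arrays at the floor (adjusted p of 0.00452 and 0.0463 by limma), so these sizes depend on the floor. The miR-600 call was lost without 18 of the 27 arrays in turn, and with the common detection limit neither was called. The miR-766 precursor read 9.02, 8.92 and 8.85 in the control and 9.11 to 10.09 with POL6326, with no overlap (0.66, SE 0.16, adjusted p = 0.0185). Its SDF-1α arrays read 9.11 to 9.93 and likewise lay above all control arrays, though this row was not called with SDF-1α. The precursor of miR-128a, a miRNA linked to leukaemia, read 7.81, 7.34 and 7.44 in the control and 4.01 to 6.31 with POL6326, also with no overlap (-2.17, SE 0.50, adjusted p = 0.0162). It was detected on 8 of 12 POL6326 arrays, so this size depends on the floor too. The SDF-1α arrays, 9 of 12 detected, read 4.26 to 7.41. The mature miR-128a row was also lower with POL6326 than in the control (-0.72, SE 0.18, adjusted p = 0.0252). The miR-766 call was lost without control array 2 or 3, and the miR-128a precursor call without control array 1 or 2 and with the common detection limit.

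The miR-212 precursor was lower with POL6326 than in the control, with a difference of -0.50 (SE 0.14, adjusted p = 0.0497 by limma), and that of its mature row was -0.80 (SE 0.14, adjusted p = 0.00258). The miR-212 precursor call was lost in 25 of 38 other settings, among them quantile normalization (adjusted p = 0.267), the common detection limit (adjusted p = 0.0710) and 20 of the 27 that leave out 1 array. For miR-128a and miR-212 both rows passed the threshold in the same direction with the values as deposited. Their mature rows were also lower in mean with SDF-1α than in the control, so this was not particular to POL6326. The means were 10.65 (control), 9.69 (SDF-1α) and 9.93 (POL6326) for mature miR-128a, and 11.39, 10.76 and 10.58 for mature miR-212. Of the 7 mature rows beside the precursors called with POL6326, 2 were called, and of the 6 beside those called with SDF-1α, 0 were.

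Whether a precursor and its mature row changed unequally between POL6326 and SDF-1α was tested on the difference of the 2 rows on each array. Of the precursor and mature pairs 22 (15.6%) were called by limma, beside 12.7% of all 401 pairs of rows of 1 miRNA and 11.2% of the other pairs. The precursor changed by more in the positive direction in 10 of them and by less in 12. The rows used here overlap with the comparison above, so the pairs of miR-600, miR-376b, miR-638, miR-657 and miR-611 draw on the same arrays.

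In the pairs led by the precursor, the mature row differed little or less than the precursor. The miR-600 mature row was detected on 4 of 27 arrays and differed by 0.16 where the fitted, floor-dependent difference of its precursor was 2.08 (difference of the changes 1.93, SE 0.37, adjusted p = 0.00163 by limma). The miR-376b mature row was detected on 1 array and differed by -0.03 (difference of the changes 1.92, SE 0.38, adjusted p = 0.00203). For miR-638 the mature row was detected on 27 arrays and was itself called at 0.68 (SE 0.15, adjusted p = 0.00548), less than its precursor by 1.29 (SE 0.31, adjusted p = 0.0112). The mature row of miR-657, detected on 27 arrays, differed by -0.11 (SE 0.09, adjusted p = 0.398).

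In the pairs led by the mature row, the precursor was mostly undetected. The precursors of miR-506, miR-203, miR-608 and miR-557 were detected on 5, 1, 0 and 0 arrays, and their mature rows differed by 1.89, 1.41, 1.71 and 0.78. These mature rows were detected on 2, 3, 8 and 9 of 12 SDF-1α arrays, so the sizes depend on the floor and are no measured folds. In these 4 pairs the test is in effect one of the mature row. The precursors of miR-375, a miRNA of pancreatic islets, and of the muscle miRNA miR-133b were detected on all 27 arrays. The miR-375 precursor read 11.53 to 12.64 with SDF-1α and 11.21 to 12.70 with POL6326, a difference of 0.11, while its mature row differed by 1.64 (difference of the changes -1.53, SE 0.35, adjusted p = 0.00795 by limma). The miR-133b precursor differed by -0.07 and its mature row by 1.41 (-1.47, SE 0.33, adjusted p = 0.00591). The miR-375 and miR-133b mature rows were at the floor on 2 and 1 of the SDF-1α 1 h arrays.

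Where both rows were detected on all 27 arrays, they tended to move alike. In 11 of these 13 pairs the 2 changes had the same sign, and 3 pairs were called: miR-560, miR-602 and miR-801. The miR-565 precursor and mature rows differed by -0.70 and -0.74 between the treatments, and those of miR-206 by -0.44 and -0.42. The miR-560 rows differed by -0.57 and -1.01, an unequal change of 0.44 (SE 0.14, adjusted p = 0.0422 by limma). As a description over pairs that share arrays and depth, Pearson's r of the 2 changes was 0.74 over the 13 pairs and 0.17 over all precursor and mature pairs. Over 10 pairs of a mature row and the row of its other strand (marked *), all detected on 27 arrays, r was -0.53. How often unrelated rows share a sign was not tested, so no link between a precursor and its mature row follows.

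**Figure D5:**
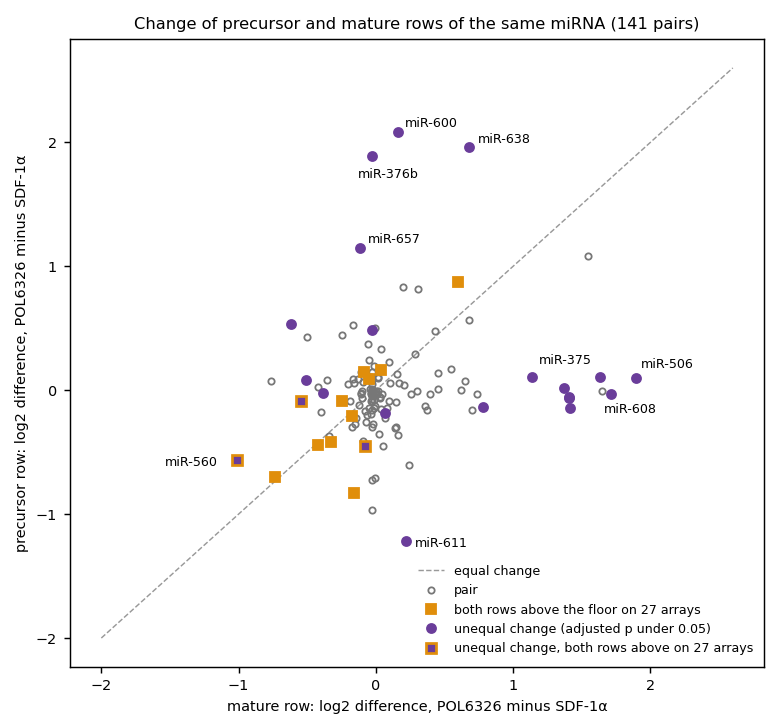
Log2 difference, POL6326 minus SDF-1α over 4 times, of the precursor row (vertical axis) against that of the mature row (horizontal axis) for every pair; purple marks the 22 pairs with unequal change, orange squares the 13 pairs with both rows detected on 27 arrays (purple inside for 3), and the dashed line equal change. Purple points lie along the vertical axis (miR-600, miR-376b, miR-657) or the horizontal one (miR-506, miR-608, miR-375), and the orange squares run along the dashed line, miR-560, miR-602, miR-631 and miR-801 farther from it.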

How the data were processed

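The deposited table holds log2 signals, made by the authors, on 27 arrays. Per the labels, biotin was introduced when total RNA was copied from a random octamer primer, and the product was put on a chip. Of scanner, background correction, normalization and genome build the sources used here say nothing. No value table column was left without a sample, and 10 control rows were left out of all tests.

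The values were used as deposited. The floor was an array's most frequent value, a row within 1e-04 of it or under it counted as undetected, and 1799 of 3699 precursor values were detected and 50 lay under the floor. Against a group wholly at the floor, a fold uses the detection limits, averaged over its arrays ("at least"), and none is given where that was under 1. Tied floor values vary little, so an SE or p-value that rests on them can be too small. The number of arrays limits the precision, and 3 against 3 arrays allow no exact permutation p under 0.1.

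A model with 1 mean per group was fitted to 774 rows with limma 3.58.1 in R 4.3.3 (empirical Bayes, prior degrees of freedom 0.90). Two-sided p-values were corrected with Benjamini-Hochberg within each comparison over 774 rows, or over 401 pairs for the differences of 2 rows of 1 miRNA, with the threshold at 0.05. In simulated data for POL6326 against SDF-1α over 4 times (774 probes), 86.0% of probes changed by a log2 of 1 and 100% of those changed by 2 were called, and 4 of 574 unchanged ones were. Whether these shares of calls hold for rows at the floor was not tested. The table's 137 precursor rows stand for 133 miRNAs and make 141 precursor and mature pairs. Names of 132 precursor rows matched a RefSeq symbol and 5 did not.

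The precursor rows, gene lists and named rows (largest calls per comparison, up to 12 and 12, 8 and 8, or 5 and 5, the 5 smallest p of each F-test, 8 pairs and the 10 highest means) were chosen with earlier results of these data known. Rows named for their detection pattern were chosen after their values were seen.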

Additional observations from a re-analysis of the deposited data

Results flagged for a closer look

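For 4 precursors the difference between POL6326 and SDF-1α itself differed between time points, by limma's moderated F-test of the treatment by time interaction adjusted over 774 rows. The adjusted p was 0.00962 for miR-595, 0.0220 for miR-619, 0.0267 for miR-206 and 0.0421 for miR-657. For miR-595 all 3 POL6326 arrays lay below all 3 SDF-1α arrays at 2 h and above them at 8 h. For miR-619 they lay below at 1 h and above at 8 h, and for miR-206 they lay below at 2 h. For miR-657 they lay above at 1 h, where the SDF-1α arrays were at the floor. The miR-619 difference at 8 h was not called (adjusted p = 0.126 by limma). As the 4 rows were picked by a test on the same values, this lack of overlap adds no separate support. The mature rows of these miRNAs had adjusted p of 0.535, 0.574, 0.495 and 0.528 in the same F-test. That of miR-619 was detected on 1 of 12 SDF-1α and 3 of 12 POL6326 arrays, so it could hardly show such a pattern. Whether a precursor and its mature row differed in their time course was not tested.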

How the results depend on the processing

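Of 2068 values of the 56 named results under other settings, 1616 kept direction and side of the threshold, 444 kept the direction and were no longer called, 7 became called and 1 turned: the miR-662 precursor at 4 h was at -0.11 with median centring. The causes of these moves were not tested. Shares of all rows called under the other settings are not given beside the counts of precursors. Comparisons are given in the order mean of 4 times, 1, 2, 4 and 8 h (POL6326 against SDF-1α), SDF-1α against control, POL6326 against control, interaction, any of 9 groups and pairs, with 13, 4, 6, 11, 2, 6, 7, 4, 33 and 22 calls as reported.

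Median centring, which moved the median of all rows at 4 h and 8 h from -0.04 and -0.00 to -0.34 and -0.34, gave 52 calls for the mean, 48 at 4 h, 29 at 8 h, 27 in the interaction and 68 over any group. Its shift was unlike on arrays whose median is the floor and arrays whose median is a signal. Quantile normalization gave 2 at 2 h and 1 at 8 h. Leaving out rows at the floor on over 50% of arrays, which left 62 precursors, gave 1 at 8 h, 3 for SDF-1α against control, 10 in the interaction and 7 pairs. The common detection limit gave 7 for the mean, 2 at 2 h, 5 at 4 h, 0 at 8 h by limma (12 with an unadjusted p under 0.05), 1 and 2 against control, 2 in the interaction and 18 over any group. The covariate gave 6 for the mean, 1 at 4 h, 4 at 8 h, 15 for POL6326 against control, 11 in the interaction and 10 pairs. Fitting only the groups compared gave 2 at 1 h, 0 at 8 h (12 with an unadjusted p under 0.05) and 1 for SDF-1α against control. Without the 1 h arrays there were 8 for the mean, 2 for SDF-1α against control, 8 in the interaction and 12 pairs. Without the 4 h arrays there were 5 for the mean and 12 for POL6326 against control. Raising values under the floor to it, chosen after seeing the data, gave 56 over any group.

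Leaving out each array in turn gave 9 to 19, 1 to 5, 0 to 7, 3 to 14, 1 to 4, 1 to 9, 4 to 9, 2 to 8, 22 to 54 and 13 to 25 calls. At 8 h 20 of the 27 arrays moved the count, to 4 without SDF-1α 8 h array 1 and otherwise to 1. POL6326 against control had 4 without control array 2. The interaction had 8 without SDF-1α 8 h array 1, 7 without SDF-1α 8 h array 3 or POL6326 4 h array 3, and 2 without POL6326 4 h array 2. There were 13 pairs without SDF-1α 4 h array 1 or POL6326 2 h array 2.

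Samples of 1 replicate number share only that number: over 108 same-number pairs the deviations from group means correlated at -0.28 to 0.72, with a median of 0.013. With the replicate block the counts were 16, 4, 6, 12, 2, 4, 8, 5, 34 and 23, and 53 of the 56 named results kept their call.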
